A study of Drosophila melanogaster with 2 samples.

Results

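The salivary gland secretion genes Sgs1, Sgs3, Sgs4, Sgs5, Sgs7 and Sgs8 and the new glue genes ng1, ng2, ng3 and ng4 were examined in Drosophila larvae with RNAi against Ck1alpha. They were taken by symbol from the authors' annotated array table, including probe sets that carry the symbols of several genes, and this gave 11 probe sets for the 10 genes, among 18952 probe sets on the array and 12596 named genes in all. RNA of whole larvae was hybridized to the Affymetrix Drosophila 2 GeneChip. The study's methods describe the harvest of larvae at the feeding stage of the mid-third instar. Its results describe the Ck1alphaRNAi larvae of the array as diabetic and not feeding, so the groups also differed in these traits. Control larvae were the progeny of Dcg-Gal4 females and w1118 males (Dcg-Gal4 > w1118), and Ck1alphaRNAi larvae were the progeny of the same driver and UAS-Ck1alphaRNAi (Dcg-Gal4 > UAS-Ck1alphaRNAi), so that both groups carried the driver. The driver Dcg-Gal4 is active in fat body and blood cells, and the glue genes are transcribed in the salivary gland. Whether the driver is also active in the salivary gland was not tested. Each group was 1 pool of 20 larvae on 1 array, labelled female, with 6 days of culture in the labels. To allow for delayed development, the study's methods started the Ck1alphaRNAi cultures 1 day before the controls. The study describes most of its hyperglycemic RNAi animals as slightly delayed. Whether the 2 pools were at the same stage was not tested.

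Glue is the secretion with which the larva fixes its puparium to a surface. Its proteins are made in the larval salivary glands during the third instar, stored in granules and expelled at pupariation. The larger ones, such as those of Sgs1, Sgs3 and Sgs4, hold repeats rich in threonine or other amino acids, and those of Sgs1 and Sgs3 are mucins, whereas Sgs5, Sgs7 and Sgs8 encode small proteins. The steroid hormone ecdysone, acting through its receptor and through the transcription factor broad, switches the Sgs genes on in the course of the third instar. The ng genes lie beside Sgs4 in the same chromosome puff and are also transcribed in salivary glands, and here they are set against the Sgs genes as the group described as active earlier.

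The Sgs genes and the ng genes differed sharply. All 6 Sgs genes were lower in Ck1alphaRNAi larvae than in controls, by 3.08-fold to 15.2-fold, while the 3 ng genes with a signal above background had 97.5% to 102% of the control signal. The median log2 ratio of Ck1alphaRNAi over control was -2.62 for the Sgs genes (6.14-fold lower) and 0.01 for the ng genes, a difference of -2.62 on the log2 scale between the groups. Of all detected genes, 6.94% were at least 2-fold lower, as were 6 of 6 Sgs genes and none of the 3 detected ng genes. The 2 groups did not overlap: the least reduced Sgs gene, Sgs7, and the lowest of the ng genes, ng2, were 1.58 apart on the log2 scale. With 1 array per group no test was possible and no p-value is given. In RNA from whole larvae, fewer salivary gland cells and less RNA per cell cannot be told apart.

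The values are MAS5 signals, intensities of probe sets on the linear scale, and both arrays had the same trimmed mean of 500.0 as deposited. Detection meant a signal of 100 or more on either array, and 9026 of 12596 named genes and 9 of the 10 glue genes met it. As a rough measure of technical error, probe sets of the same gene differed in log2 ratio with an SD of 0.41 (1.33-fold, 439 genes). This SD does not hold the spread between pools of larvae. It takes in dim as well as bright detected probe sets, and the 3 bright ones for ng1 and ng2 had an SD of 0.09. The 17 tag controls, probe sets with no match in the fly, reached at most 53.3 (Ck1alphaRNAi array) and 33.1 (control array), and all signals of the 6 Sgs genes lay above these levels. Ck1alpha itself gave 2055 in Ck1alphaRNAi and 2665 in control larvae, a ratio of 0.771. This was short of 2-fold in whole larvae, and its level in the fat body alone was not measured. RpL32, a ribosomal protein gene, had a ratio of 1.01.

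Sgs1, which encodes a large mucin of the glue, had the largest change, at 222 in Ck1alphaRNAi and 3362 in control larvae (15.2-fold lower, log2 ratio -3.92). Of the 9026 detected genes, 20 had a log2 ratio as low as that of Sgs1 or lower, Sgs1 counted. Sgs3, another mucin gene and one of the main glue genes, gave 4864 against 26298, a 5.41-fold decrease (log2 ratio -2.43). In Ck1alphaRNAi larvae the signal of Sgs3 was thus 18.5% of control. Sgs4, the glue gene of the X chromosome, gave 2692 against 18786, or 6.98-fold lower (log2 ratio -2.80). These 3 genes of repeat-bearing proteins were all more than 5-fold lower.

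Sgs8, a gene of a small glue protein, gave 2169.6 against 15879 and was 7.32-fold lower (log2 ratio -2.87). Sgs5 gave 5408 against 20269, which was 3.75-fold lower (log2 ratio -1.91). Sgs7, whose small protein is related to those of Sgs3 and Sgs8, gave 7866 against 24199.8, a 3.08-fold decrease (log2 ratio -1.62). Sgs7 was the least reduced of the 6, at 32.5% of control, and 190 of 9026 detected genes were as low or lower. The 6 log2 ratios spread over 2.30, with an SD of 0.82 across genes, against the SD of 0.41 between probe sets of 1 gene. Sgs1 and Sgs7, at the ends of the order, lay 3.94 times the SD of a difference between 2 probe sets apart (that SD is 0.58 on the log2 scale). Neighbours in the order Sgs1, Sgs8, Sgs4, Sgs3, Sgs5 and Sgs7 were closer. Sgs8, Sgs4 and Sgs3 cannot be ranked by these data, since Sgs3 and Sgs8 differed by 0.44, or 0.75 times that SD. Sgs3 and Sgs5, and likewise Sgs5 and Sgs7, also differed by less than that SD and cannot be ranked either.

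The ng genes had bright signals on both arrays. The signal of ng1 was 11062 in Ck1alphaRNAi larvae and 10836 in controls, a ratio of 1.02. That of ng2 was 9193 against 9433, a ratio of 0.975, and that of ng3 was 14956 against 14900.4, a ratio of 1.004. The log2 ratios of these 3 probe sets lay between -0.04 and 0.03, a range far narrower than the SD of 0.41 between probe sets of 1 gene. Another probe set is annotated to both ng1 and ng2, so that it cannot separate their transcripts, and it gave 12278 against 11099 (ratio 1.11, log2 ratio 0.15). The 3 probe sets for ng1 and ng2 spread over 0.18 on the log2 scale. ng4 stood apart, with 2.30 in Ck1alphaRNAi larvae and 1.53 in controls, both far below the tag controls, and no fold is given for it. ng4 was left out of the counts and medians of detected genes.

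**Figure D1:**
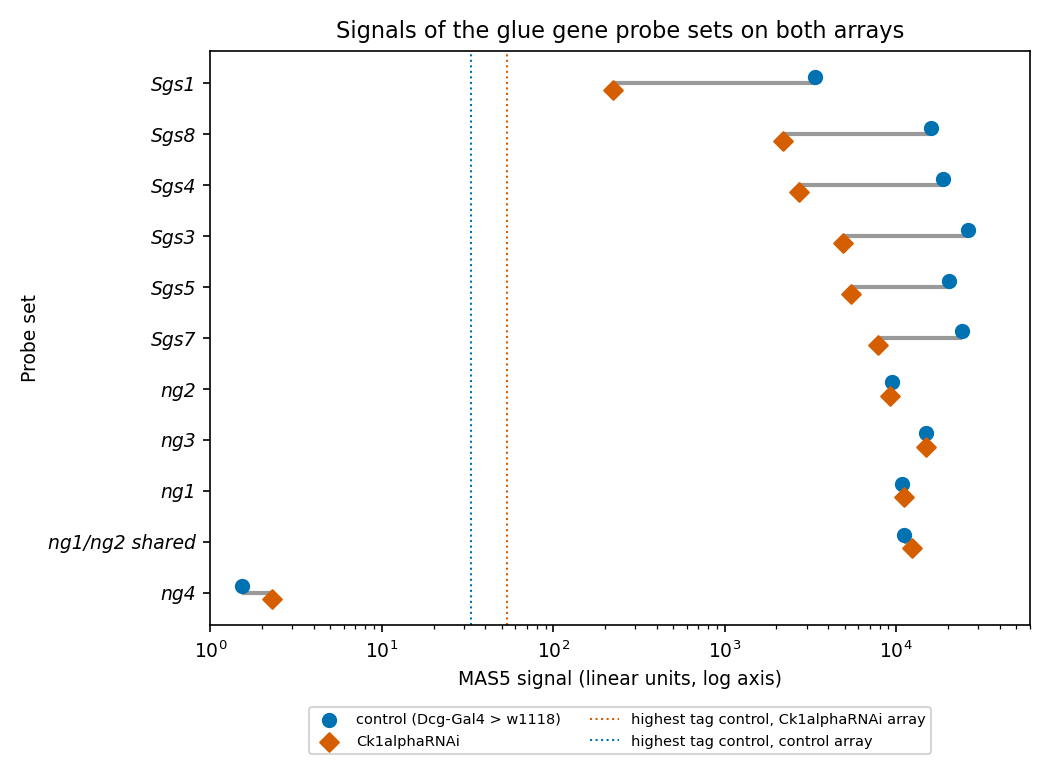
MAS5 signal (log axis) of each glue gene probe set in control larvae (circles) and Ck1alphaRNAi larvae (diamonds), 1 array each, with dotted lines at the highest tag control of each array. The 6 Sgs genes are lower in Ck1alphaRNAi larvae, from 222 against 3362 for Sgs1 to 7866 against 24199.8 for Sgs7, the ng1, ng2 and ng3 symbols nearly coincide, and ng4 lies below the tag controls.

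The 6.94% of all detected genes that were at least 2-fold lower were 626 of 9026 genes. None of the 9 detected glue genes was at least 2-fold higher, against 2.84% of all detected genes. Among the 554 detected genes with a mean signal of at least 5000 on the 2 arrays, 3.97% were at least 2-fold lower and 2.35% at least 2-fold higher, and the median log2 ratio of these genes was 0.07. The median of all detected genes was -0.02, close to that of the ng genes. The brightest probe set of the control array had a signal of 31540, not far above the control signals of Sgs3 and Sgs7, and whether signals of this size are compressed was not tested.

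**Figure D2:**
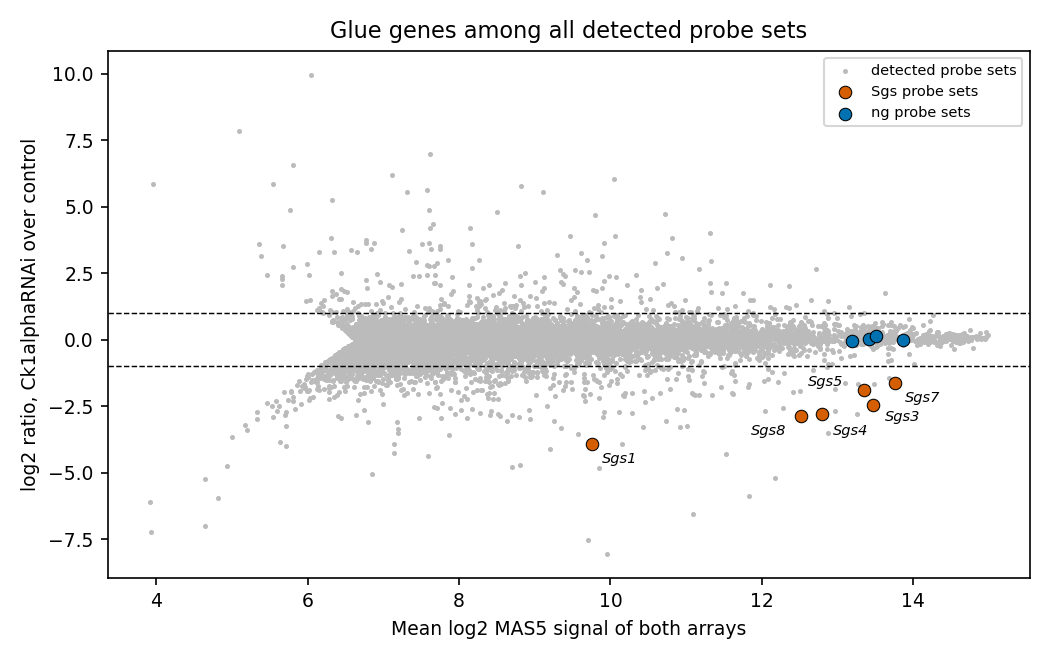
The log2 ratio of Ck1alphaRNAi over control (y) against the mean log2 MAS5 signal of both arrays (x) for every detected probe set (grey), with the Sgs probe sets in orange, the detected ng probe sets in blue and dashed lines at 2-fold. The Sgs genes lie at log2 ratios of -3.92 to -1.62, and the ng probe sets at -0.04 to 0.15.

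Neighbouring genes often had unlike ratios. Current gene order was read from a reference table (Release 6 plus ISO1 MT), and no coordinates are given because the sources name no build for the probe sets. On the X chromosome the order is CG14265, ng2, ng3, ng1, ng4, Pig1 and Sgs4. Sgs4 was 6.98-fold lower, but Pig1, the gene next to it, gave 5009 in Ck1alphaRNAi and 4811 in control larvae (ratio 1.04). CG14265, on the far side of the ng genes, gave 8111 against 7778 (ratio 1.04). The log2 ratio of Sgs4 was below those of ng1, ng2 and ng3, with differences of -2.83 to -2.77, or 4.73 to 4.85 times the SD of a difference between 2 probe sets. The 4 detected genes from CG14265 to ng1, together with Pig1, thus had ratios of 0.975 to 1.04, and Sgs4 was the exception in this row of neighbours.

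On the left arm of chromosome 3 (3L), Sgs8, Sgs7 and Sgs3 are close neighbours, with CG33272 between Sgs7 and Sgs3. All 3 Sgs genes were lower, whereas CG33272 gave 222 in Ck1alphaRNAi and 207 in control larvae (ratio 1.07). Among the 3 Sgs genes of this cluster, the adjacent Sgs8 and Sgs7 differed most, with log2 ratios of -2.87 and -1.62, a gap of 2.38-fold or 2.14 times the SD of a difference between 2 probe sets. On the right arm (3R), Sgs5 lies between Sgs5bis and CG7606. Sgs5bis, a relative of Sgs5 listed in the file as CG7587, gave 99.2 against 760 (7.66-fold lower), and CG7606 gave 920 against 3357 (ratio 0.274). The detected genes beside Sgs1 on the left arm of chromosome 2 (2L), hoe1, hoe2 and mRpL24, had ratios of 0.815 to 1.23. Farther out in the clusters, dnc, chrb, Prx3 and sll had ratios of 0.897 to 1.10, while Hmx gave 60.7 against 103, a log2 ratio of -0.76 that loess moved to -0.01. CG10793, CG7512 and synr were not detected, and CG33500, CG11714 and CR44886 had no named probe set. In all, 13 of the 19 genes within 2 places of a glue gene or of Sgs5bis (counting Sgs5bis itself) were detected. Of these, 2 were at least 2-fold lower, Sgs5bis and CG7606, against 6.94% of all detected genes.

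**Figure D3:**
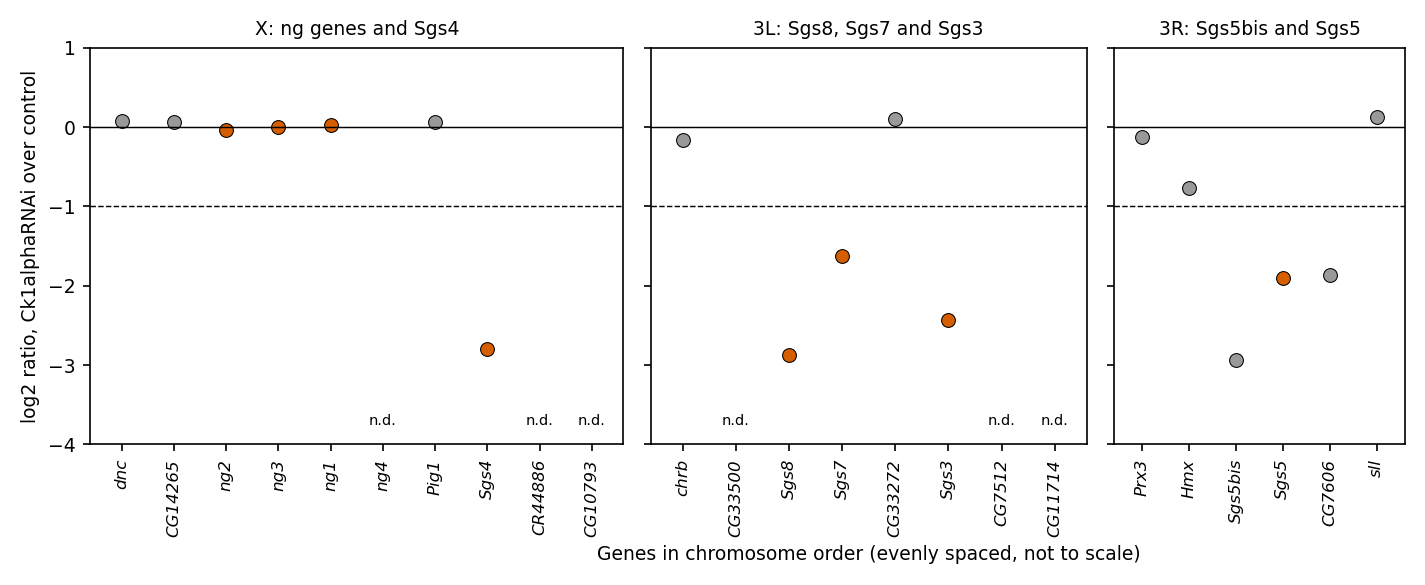
The log2 ratio of Ck1alphaRNAi over control (y) for genes in their order along 3 stretches of chromosome (x, evenly spaced), with the glue genes named above in orange, their neighbours in grey, a dashed line at 2-fold lower and n.d. for genes that were not detected or had no probe set of their own. Sgs4 lies at -2.80 beside Pig1 at 0.06 and the ng genes near 0, and Sgs8, Sgs7 and Sgs3 lie below the line while CG33272 between them does not.

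The file's Gene Ontology column assigns puparial adhesion to 13 probe sets, of which 11 are those of the glue genes described above. The remaining 2 were Eig71Ee and Chc. Eig71Ee, a mucin-like gene of the glue and of hemolymph clotting, gave 1656 against 10703, or 6.46-fold lower, which lay within the range of the Sgs genes. Chc, the gene of the clathrin heavy chain, a coat protein of vesicles in all cells, gave 4256 against 4025 (ratio 1.06). The 10 other genes of the Eig71E cluster, which are known as late targets of ecdysone, were all below 100 on both arrays, with signals of at most 24.4.

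Of 9 detected ecdysone receptor and early regulator genes, 2 were lower by 2-fold or more (against 6.94% of all detected genes) and 1 was higher (against 2.84%), and the median log2 ratio was -0.05. EcR, the ecdysone receptor gene, gave 307 against 804 (2.62-fold lower), while its partner usp gave 558 against 574 (ratio 0.973). The broad gene br, a transcription factor required for Sgs expression, gave 1138 against 2413, a 2.12-fold decrease, and the ratios of all 6 of its probe sets lay between 0.469 and 0.961. Eip74EF, an early ecdysone response gene, had a ratio of 0.563, and Eip75B, another, a ratio of 0.926. Hr39, crol and ftz-f1, further genes of this list, had ratios of 0.967 to 1.03. The 1 higher gene was Eip63E, which encodes a cyclin-dependent kinase, at 1223 against 65.8. Genes of the juvenile hormone response were within 2-fold (4 detected of 7, median log2 ratio 0.16), as were most detected genes. Kr-h1, the transcription factor of this response, gave 635 against 647, and the hydrolase gene Jheh1 gave 1946 against 1386.

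Among salivary gland genes other than the glue genes, sage, a basic helix-loop-helix transcription factor of the salivary gland, gave 156 in Ck1alphaRNAi and 720 in control larvae, a 4.61-fold decrease. Of the 8 detected genes of this list, 6 had the lower signal in Ck1alphaRNAi larvae (median log2 ratio -0.27, against -0.02 over all detected genes). Only sage was at least 2-fold lower (1 of 8, against 6.94% of all detected genes). fkh, the forkhead factor with which sage acts, gave 304 against 418 (ratio 0.727), and sens gave 64.2 against 118, a log2 ratio of -0.88 that loess moved to -0.24. PH4alphaSG1 and PH4alphaSG2, prolyl hydroxylase genes of the salivary gland, had ratios of 1.06 and 0.894, and CrebA, a factor of secretory cells, 0.882. The summed signal of the 9 listed genes, eyg included though not detected, was 3174 against 4263, of which sage alone made 156 against 720. Besides PH4alphaSG1, toe had the higher signal in Ck1alphaRNAi larvae, at 159 against 140 (ratio 1.14). Like the Sgs genes, sage was thus lower, while the prolyl hydroxylase genes were hardly changed. With 1 array per group, a shared direction does not show that genes vary together. The part of these salivary gland genes in the lower Sgs signals was not tested.

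Mucin-type O-glycosylation, the attachment of sugars to the threonine and serine of mucins, begins with the Pgant transferases. Of 11 detected genes of this process, 10 had the lower signal in Ck1alphaRNAi larvae. Their median log2 ratio was -0.23, against -0.02 over all detected genes. Most of these differences were smaller than the SD of 0.41 between probe sets of 1 gene. Against 6.94% of all detected genes, 1 of the 11 was at least 2-fold lower. This was Pgant8, at 137 against 279, a ratio of 0.493 that no longer passed 2-fold after quantile normalization, loess or with a pseudocount. Pgant9, listed in the file as CG30463 and known to glycosylate Sgs3, gave 1857 against 2181 (ratio 0.851). None of 15 detected genes of glue granule secretion, such as the exocyst subunits, was 2-fold changed (median log2 ratio 0.19). Most detected genes were likewise within 2-fold, with 6.94% of them at least 2-fold lower and 2.84% at least 2-fold higher. Among the 15, the small GTPase gene Rala, which acts with the exocyst, had the largest change, at 3573 against 1852 (ratio 1.93).

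**Figure D4:**
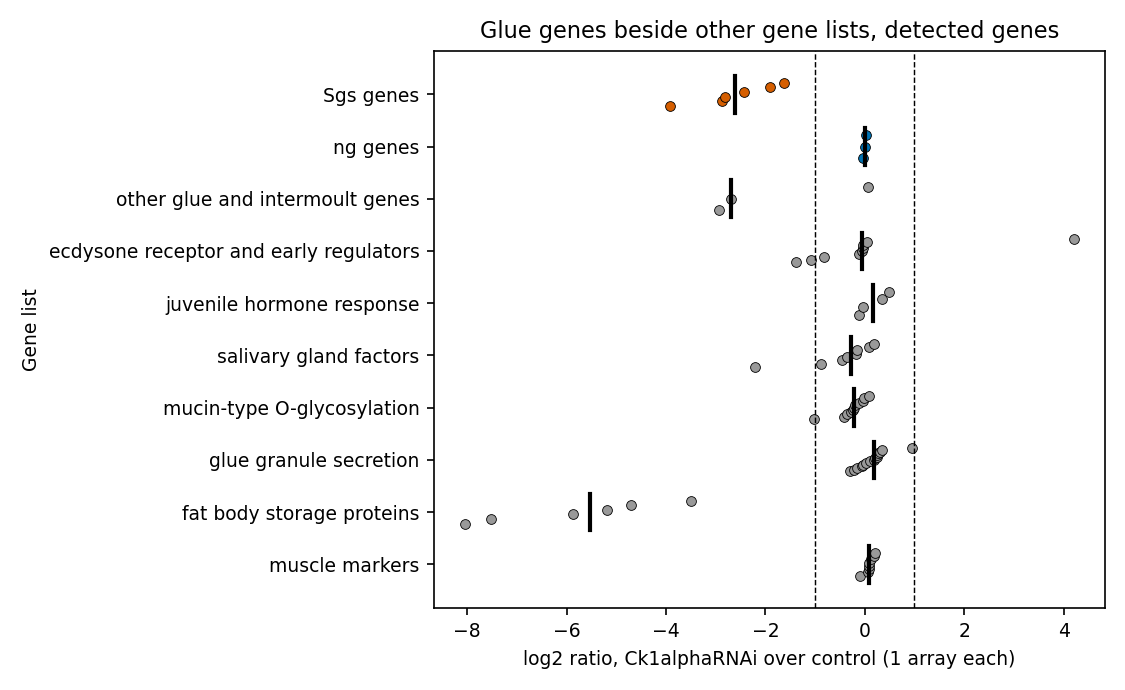
The log2 ratio of Ck1alphaRNAi over control (x) of the detected genes of each list (y, 1 point per gene), with a black bar at the median and dashed lines at 2-fold. The Sgs genes have a median of -2.62 and the ng genes of 0.01. Larval serum and fat body proteins, labelled fat body storage proteins, have a median of -5.53, and muscle markers of 0.09.

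The genes as low as the Sgs median and with the brightest control signals were mostly those of larval serum proteins and fat body proteins. There were 67 detected genes beyond the glue genes with a log2 ratio at or below -2.62, and the 8 brightest of these in control larvae were Lsp1beta, Lsp2, Lsp1gamma, Obp99b, Fbp2, CG16704, Lsp1alpha and Eig71Ee. The larval serum proteins and the fat body proteins, which the fat body makes in the third instar, changed more than the glue genes (median log2 ratio -5.53). Against 6.94% of all detected genes, 6 of 6 of them were lower by 2-fold or more. Lsp1gamma, the least changed of them, gave 2221 against 25122, an 11.3-fold decrease, and among the Sgs genes Sgs1 alone had a larger one. Likeness was measured here by the ratio over 2 arrays, which groups genes by the size of 1 difference.

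Among 414 genes within 2-fold of the median signal of the ng genes, the 5 nearest to their median log2 ratio were RpL17, Jon25Bii, CG5177, Hsp83 and Fer1HCH, with ratios of 1.003 to 1.005. RpL17 encodes a ribosomal protein, Hsp83 a chaperone, Fer1HCH a ferritin subunit and Jon25Bii a digestive protease. Muscle markers, as a tissue outside the salivary gland and fat body, had 8 of 8 genes within 2-fold and a median log2 ratio of 0.09. Most detected genes were also within 2-fold (6.94% lower and 2.84% higher by at least that much). The myosin heavy chain gene Mhc, the most changed muscle marker, gave 23912 against 20764. Neuron markers had a median of 0.18 over 3 detected of 5 genes, 2 higher and 1 lower. Among them Snap25 gave 454 against 378 and elav 439 against 526. Imaginal disc markers had a median of -0.03 over 6 genes, 3 higher and 3 lower. The growth factor gene dpp gave 1201 against 624, and Dll 140 against 229. Midgut markers were higher in 5 of 6 genes (median log2 ratio 0.53, against -0.02 over all detected genes). Of the 6 midgut markers, 2 were at least 2-fold higher (against 2.84% of all detected genes). They were the protease gene Jon44E with a ratio of 3.35 and the maltase gene Mal-A1 with one of 3.25. Of 7 detected blood cell markers, 4 were higher and 3 lower, with Pxn the lowest at 609 against 1001. None was 2-fold lower (against 6.94% of all detected genes), and 2 were at least 2-fold higher (against 2.84%). These were NimC1, a phagocytosis receptor gene, at 477 against 62.6, and PPO3, a prophenoloxidase gene, at 297 against 10.1, the latter below the highest tag control. The part of these other tissues in the Sgs values was not tested.

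With 1 pool of larvae per genotype, the genotype, the stage of the larvae and the array cannot be told apart for any of these genes. Other scalings and other choices of probe set left the Sgs minus ng difference of median log2 ratios between -2.76 and -2.62.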

How the data were processed

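RNA of whole larvae from 1 control and 1 Ck1alphaRNAi pool was hybridized to 1 array each. The labels name Trizol for the extraction and the study's methods an RNA extraction kit. The deposited values are signal intensity per probe set, linear and made by the authors with MAS5 (version 5, per the submitters' processing notes), and the fold change they added was not used. Neither a scaling target nor detection calls were used here. The other deposited table repeated these intensity values.

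Names came from the symbol column, updated through the reference table: 13689 had 1 symbol, 730 several names of 1 gene and 14 were named through their transcript identifier, while 578 of several genes and 3941 without a name were left out. The brightest named probe set stood for each gene, and the probe set of both ng1 and ng2 is reported apart. The log2 ratio has the control signal as its denominator and no pseudocount. Detection meant a signal of 100 or more on either array.

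The members and gene lists were chosen with earlier results of these data known. The naming rule admitted all members, of each of the 15 lists up to 4 detected genes with the largest change and up to 2 going the other way, the 8 brightest genes as low as the Sgs median, the 5 nearest to the ng median and the 2 neighbours on each side. For long lists and for markers of other tissues, fewer are named. Other genes of the lists, Chc and the levels of the tag controls were chosen after their values were seen. With 1 array per group no test was run, and the number of arrays limits the precision. The ratio and scaling steps were tested on simulated data. Loess, quantile normalization, median centring, a pseudocount of 16, other detection limits, the second table and other choices of probe set were tried. Python 3.11.15, numpy 2.4.6, pandas 2.3.3, statsmodels 0.14.6 and matplotlib 3.10.9 were used.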

Additional observations from a re-analysis of the deposited data

How the results depend on the processing

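The 6 Sgs genes were at least 2-fold lower, and the detected ng genes within 2-fold, under loess, quantile normalization, median centring, a pseudocount of 16, the second table and each choice of probe set. The Sgs median log2 ratio ranged from -2.70 to -2.60, the ng median from -0.08 to 0.15 and their difference from -2.76 to -2.62. The highest ng median came from using the probe set of both ng1 and ng2 for each of them, an alternative chosen after seeing the data, as was counting ng4. The signs of ng1 and ng3 turned with the scaling, at log2 ratios of -0.05 and -0.08 after loess, and no direction is given for them. The log2 ratio of ng4 went from 0.59 to 0.06 with the pseudocount. Over all genes, 405 in place of 626 were at least 2-fold lower with a detection limit of 200, which tests fewer genes. The share of higher genes among those changed 2-fold was 29.0%, and 42.0% with loess (306 higher and 422 lower). Pgant8 lost its 2-fold call after quantile normalization (ratio 0.533), loess (0.526) and with the pseudocount (0.520), and no other named gene changed its call under these settings or under median centring. No paired analysis was possible because each group has 1 array. The brightness of a probe set limits what can be read from ng4 and the 10 Eig71E genes other than Eig71Ee, which lay near background.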
